A study of Mus musculus with 8 samples.

Results

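Genes that mark preadipocytes and fibroblasts were followed in mouse fat cells exposed to asbestos fibres. The set held 10 genes, chosen by name: Dlk1, Pdgfra, Pdgfrb, Thy1, Ly6a, Cd34, Gata2, Zfp423, Wisp2 (now Ccn5) and Sfrp1. The choice was made with earlier results of these data known, so counts of members set beside all genes are only descriptive. All 10 were on the array, with 14 of its 55681 probes, and 9 of them, with 12 probes, were bright enough to be tested among 23052 genes. The cells were mature adipocytes made from 3T3-L1, a mouse preadipocyte line that fills with lipid after hormonal induction. Control cultures received physiological saline, and the other 3 groups received chrysotile, crocidolite or amosite fibres at a labelled dose of 10 mg per square centimetre of culture surface, with RNA taken after 72 hours. The dose unit is printed as the labels give it, and whether milligrams were meant could not be checked. Each group had 2 arrays, 8 in all, with no further allele or agent named in the labels. The question asked of the set was whether fibres move adipocytes towards a progenitor-like expression state.

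Preadipocytes are fibroblast-like precursors held undifferentiated by signals such as shed Dlk1, Wnt ligands and GATA factors, and committed to the fat lineage by BMP signalling and zinc-finger factors such as Zfp423. In adipose tissue, precursors are sorted by surface proteins, among them the PDGF receptors, Thy1, Ly6a and Cd34, most of which fibroblasts carry as well. Chrysotile is a curly serpentine mineral, whereas crocidolite and amosite are straight amphiboles. Cultures of differentiated 3T3-L1 usually keep some cells that did not become adipocytes, and in RNA of a whole culture a larger share of such cells and more RNA of a gene per cell cannot be told apart.

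A level here is the log2 of the spot intensity relative to the array's own 75th percentile, so that a level of 0 is the intensity of the probe at that percentile. Between 56.2 and 62.8% of probes on an array carried the scanner software's flag for a signal well above background. The cultures carried markers of fat cells: 14 of 14 adipocyte genes were well above background on all 8 arrays, with a summed level of 11.4 to 11.8 in saline and 11.3 to 11.5 with fibres. Of 10 macrophage markers, 6 were above background on all arrays, with a summed level of 5.86 to 6.0 in saline and 5.74 to 6.03 with fibres, and Lyz2 and Mrc1 were on none. Of 8 endothelial markers, 2 were above background on all arrays, with a summed level of 4.60 to 4.77 in saline and 4.48 to 4.78 with fibres, and Cdh5, Tie1 and Emcn were on none. Markers were added before the log2 was taken, so the brightest set most of the macrophage and endothelial sums. These were Itgam, with a mean of 5.73 in saline, and Kdr, with 4.66. Changes in dimmer markers hardly show in such sums.

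No member passed the adjusted threshold of 0.05 in any comparison (limma, Benjamini-Hochberg over all 23052 genes). At this threshold 0 of 23052 genes, 0%, were called in any of the 3 comparisons with saline, and the lowest adjusted p of any gene lay between 0.129 and 0.161. That count changed with the arrays used. Some genes, none of them a member, were called without saline replicate 2 and without chrysotile replicate 1 or 2, but not without saline replicate 1. Each such fit leaves 1 array in a group, which adds nothing to the estimate of the spread. Without saline replicate 2 the only control was saline replicate 1, which carried the strong trend correction described below for Dlk1. Whether those calls reflect the fibres was not tested. Wisp2 and Ly6a were the only members whose 95% interval lay above 0, with chrysotile and with crocidolite but not with amosite, and Zfp423 was the only one whose interval lay below 0, with chrysotile. In this fit, which had no replicate block, the other 6 tested members had 95% intervals that held 0 for every fibre. The 9 members were split in direction: 5 lay above saline with chrysotile, 5 with crocidolite and 4 with amosite. Their median log2 difference was 0.011 with chrysotile, against -0.0095 over all genes tested, 0.062 with crocidolite, against -0.031, and -0.0265 with amosite, against -0.0030.

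**Figure D1:**
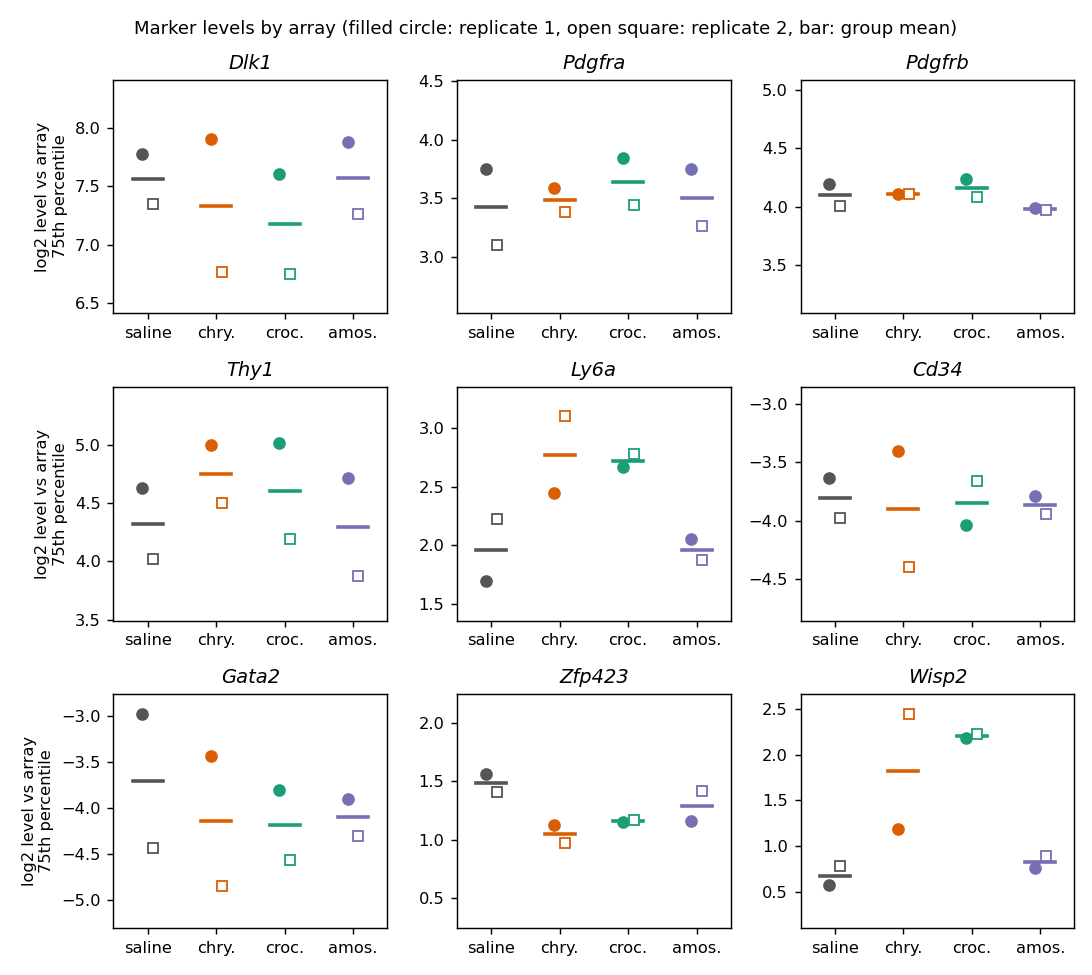
Log2 level of 9 marker genes on each of 8 arrays, relative to the array's 75th percentile, by treatment group (chry., chrysotile; croc., crocidolite; amos., amosite), with filled circles for replicate 1, open squares for replicate 2 and bars for the group mean. Each panel has its own vertical axis. Both chrysotile and both crocidolite arrays lie above all saline and amosite arrays for Wisp2 and Ly6a, while replicate 1 lies above replicate 2 in all 4 groups for Dlk1, Pdgfra, Thy1 and Gata2.

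At an unadjusted p under 0.05, 2 members were higher with chrysotile than with saline (Wisp2 and Ly6a) and 1 was lower (Zfp423). Over all genes 2.77% were higher and 2.7% lower by the same rule, 1262 genes in all. With crocidolite 2 members were higher (Wisp2 and Ly6a) and 0 lower, against 2.62% and 4.68% of all genes, 1682 in all. With amosite no member passed at the unadjusted level, against 2.59% of all genes, 596 in all. For the mean of the 3 fibres minus saline, Wisp2 was higher and Zfp423 lower, 1 each, against 2.32% and 3.33% of all genes, and in the F test over the 4 groups 2 members passed (Wisp2 and Ly6a), against 4.95%. Leaving out single arrays changed these counts. Without saline replicate 1 the count with chrysotile was 0, those of the fibre mean and of the F test were 0 as well, and that with crocidolite was 1 (Wisp2). Under the same setting 7.52% of all genes passed with chrysotile, 9.14% with crocidolite and 7.02% for the fibre mean, shares above those with all 8 arrays (5.47%, 7.3% and 5.64%). Without chrysotile replicate 2 the member count for chrysotile fell, and so did the share over all genes. The same held for crocidolite when 1 of its arrays was left out.

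Wisp2 encodes a secreted matricellular protein of the CCN family that mesenchymal precursors release and that has been tied to Wnt signalling. Its probe lies at chr2:163658717-163658776 on the plus strand (mm9, per the scanner files). The level was 0.57 and 0.78 on the 2 saline arrays, 1.19 and 2.45 with chrysotile, 2.19 and 2.23 with crocidolite, and 0.76 and 0.89 with amosite. All 4 chrysotile and crocidolite arrays were above all 4 saline and amosite arrays, which held for 4.33% of all genes tested, and the chrysotile arrays were the farthest apart. The difference from saline was 1.53 ± 0.38 (log2, SE, n = 2 arrays per group; 2.89-fold) with crocidolite, with a limma unadjusted p of 0.00619 and an adjusted p of 0.561. With chrysotile it was 1.15 ± 0.38 (2.21-fold), with limma unadjusted p = 0.0220 and adjusted p = 0.901. The size of the chrysotile value depended on the chrysotile array kept: it was 0.52 without replicate 2 and 1.78 without replicate 1. Without saline replicate 1 it was 1.04, and without saline replicate 2 it was 1.25. With amosite the difference was 0.15, with a 95% interval of -0.76 to 1.07.

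In the order of its group means, Wisp2 was highest with crocidolite (2.21 ± 0.029, SD, n = 2), then chrysotile (1.82 ± 0.89), amosite (0.83 ± 0.092) and saline (0.68 ± 0.15). Neighbours at the ends of that order did not differ beyond their spread: chrysotile minus crocidolite was -0.39, with a 95% interval of -1.30 to 0.53. When 1 array was left out, that value ran from -1.02 to 0.24, so its sign was not stable. Between chrysotile and amosite the difference was 0.99 ± 0.38 (95% interval 0.078 to 1.91; limma unadjusted p = 0.0377, adjusted p = 1.00). That value was 0.36 without chrysotile replicate 2 and 1.62 without chrysotile replicate 1, and leaving out 1 array kept the unadjusted p under 0.05 in 1 of 8 cases only, the one without chrysotile replicate 1. Between crocidolite and amosite it was 1.38 ± 0.38 (limma unadjusted p = 0.0100, adjusted p = 0.859).

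Ly6a, also known as Sca-1, is a lipid-anchored surface protein used to sort adipose and other mesenchymal precursors in the mouse. Its probe is at chr15:74825553-74825612 on the minus strand. The level was 1.69 and 2.22 with saline, 2.44 and 3.11 with chrysotile, 2.67 and 2.78 with crocidolite, and 2.05 and 1.87 with amosite. As for Wisp2, the chrysotile and crocidolite arrays all lay above the saline and amosite arrays, though the gap between saline replicate 2 and chrysotile replicate 1 was narrow. The difference from saline was 0.82 ± 0.27 (1.76-fold) with chrysotile, with limma unadjusted p = 0.0213 and adjusted p = 0.901. With crocidolite it was 0.77 ± 0.27 (1.70-fold), with limma unadjusted p = 0.0274 and adjusted p = 0.651. With amosite the Ly6a difference was 0.0044, and its 95% interval ran from -0.64 to 0.65. Without saline replicate 1 the chrysotile and crocidolite differences of Ly6a were 0.55 (limma unadjusted p = 0.115) and 0.50 (limma unadjusted p = 0.144). Without chrysotile replicate 2 the chrysotile difference of Ly6a was 0.49 (limma unadjusted p = 0.112).

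The fibres were also set against each other. At an unadjusted p under 0.05, 2 members, Wisp2 and Ly6a, were higher with chrysotile than with amosite, against 2.32% of all genes, and the same 2 were higher with crocidolite than with amosite, against 2.13%. For Ly6a the differences were 0.81 ± 0.27 and 0.76 ± 0.27. Without chrysotile replicate 2 the chrysotile minus amosite value of Ly6a was 0.48 and without chrysotile replicate 1 it was 1.14, and the unadjusted p was no longer under 0.05 without chrysotile replicate 2 or amosite replicate 2. The crocidolite minus amosite value of Ly6a ran from 0.67 to 0.85 when 1 array was left out, and its unadjusted p was no longer under 0.05 without any 1 of the crocidolite or amosite arrays. No member passed between chrysotile and crocidolite, against 2.8% of all genes, and there Ly6a differed by 0.050, with a 95% interval of -0.60 to 0.70. By the adjusted p, 0% of genes were called between any fibre pair. The fibre comparisons share arrays with those against saline and are not independent of them.

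**Figure D2:**
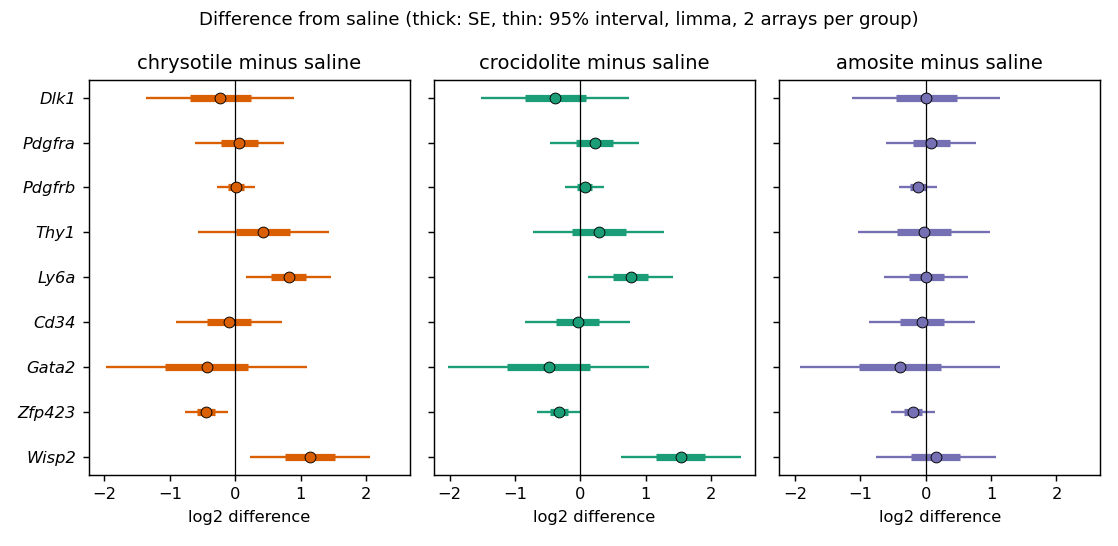
Log2 difference from saline of the 9 tested marker genes for chrysotile, crocidolite and amosite, as points with the limma standard error (thick bars) and the 95% interval (thin bars), from 2 arrays per group and a spread shared by all 8 arrays. The fit has no replicate block. The intervals of Wisp2 and Ly6a lie above 0 with chrysotile and crocidolite, that of Zfp423 lies below 0 with chrysotile, and every interval with amosite holds 0.

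Thy1, or CD90, is a lipid-anchored glycoprotein of fibroblasts and mesenchymal precursors. Its probe is at chr9:43856591-43856650 on the plus strand. The level was 4.63 and 4.02 with saline, 5.00 and 4.50 with chrysotile, 5.02 and 4.19 with crocidolite, and 4.71 and 3.88 with amosite. Every group overlapped with saline, and replicate 1 exceeded replicate 2 in each. The difference from saline was 0.43 ± 0.41 with chrysotile, 0.28 ± 0.41 with crocidolite and -0.027 ± 0.41 with amosite. With the replicate number as a block, Thy1 had a limma unadjusted p of 0.0163 for chrysotile minus saline, against 0.340 without it, and its adjusted p was 0.446. Compared array by array within a number, chrysotile was above saline by 0.37 for replicate 1 and by 0.48 for replicate 2.

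The 2 PDGF receptors, tyrosine kinases through which platelet-derived growth factors drive the growth of fibroblasts and precursors, did not differ from saline beyond the spread between arrays. Pdgfra was measured by 1 probe printed in 10 spots, at chr5:75593888-75593947 on the plus strand. Its level was 3.75 and 3.10 with saline, 3.59 and 3.38 with chrysotile, 3.84 and 3.44 with crocidolite, and 3.75 and 3.26 with amosite. Replicate 1 was above replicate 2 in all 4 groups, by 0.21 to 0.65, while the SD between the 10 spots of one array was 0.052 to 0.11. Pdgfra differed from saline by 0.062, 0.22 and 0.082 with chrysotile, crocidolite and amosite, each ± 0.28. With the replicate number as a block that standard error was 0.13, and the limma unadjusted p was 0.649, 0.150 and 0.552. Pdgfrb had the narrowest spread of the 9 tested members, with a within-group SD of 0.086. Its level was 4.19 and 4.0 with saline, 4.11 and 4.11 with chrysotile, 4.24 and 4.08 with crocidolite, and 3.99 and 3.97 with amosite. The amosite arrays of Pdgfrb were below both saline arrays, as were the amosite arrays of 11.3% of all genes tested, and the difference was -0.12 ± 0.12 (95% interval -0.41 to 0.18). With chrysotile and crocidolite the 95% intervals of Pdgfrb ran from -0.28 to 0.30 and from -0.23 to 0.36.

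Cd34, a sialomucin on precursor and endothelial surfaces, was read at an intensity of 24.3 to 44.4. Its probe at chr1:196787392-196787451 was well above background on all 8 arrays, and its level was -3.64 and -3.98 with saline, -3.41 and -4.40 with chrysotile, -4.04 and -3.66 with crocidolite, and -3.79 and -3.94 with amosite. The groups overlapped throughout, and no difference from saline was over 0.096 in size, with standard errors of 0.33. A second Cd34 probe, at chr1:196785280-196785339, was not well above background on any array. Sfrp1, a secreted Wnt antagonist, had a single probe, at chr8:24559438-24559497, that was likewise not well above background on any array, so no fold is given for it.

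Dlk1, or Pref-1, is a membrane protein with EGF-like repeats whose shed outer part keeps preadipocytes from differentiating. It had 2 probes on chromosome 12, and the one with the higher intensity, at chr12:110698721-110698781, stood for the gene. Its level was 7.78 and 7.35 with saline, 7.90 and 6.77 with chrysotile, 7.60 and 6.75 with crocidolite, and 7.88 and 7.26 with amosite. Replicate 1 exceeded replicate 2 in every group, by 0.43 to 1.14, and the groups overlapped. The difference from saline was -0.23 ± 0.47 with chrysotile, -0.39 ± 0.47 with crocidolite and 0.0081 ± 0.47 with amosite. With the replicate number as a block that standard error was 0.18, and the limma unadjusted p was 0.270, 0.0886 and 0.967.

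The other Dlk1 probe, which lies at chr12:110698502-110698561 on the plus strand, is shown because it is a second reading of the same transcript, taken elsewhere on each array, and is given as in the scanner files with no part set in capitals.
Dlk1 second probe: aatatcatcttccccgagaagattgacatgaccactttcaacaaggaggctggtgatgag
It read 4.71 and 4.02 with saline, 4.92 and 3.54 with chrysotile, 4.60 and 3.56 with crocidolite, and 4.98 and 4.21 with amosite. Its differences from saline were -0.13 ± 0.58, -0.28 ± 0.58 and 0.23 ± 0.58 with chrysotile, crocidolite and amosite. The replicate order was the same as at the first probe, with replicate 1 above replicate 2 in all 4 groups.

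The saline value of Dlk1 depended on a correction made by the scanner software, which divides each background-subtracted spot by a factor for brightness trends across the array. At the first Dlk1 probe that factor was 0.379 on saline replicate 1, which turned a background-subtracted intensity of 36964 into 97579, and 0.903 to 0.977 on the other 7 arrays. At the second probe it was 0.641 on saline replicate 1 and 0.898 to 0.955 elsewhere. On that array 4.34% of spots had a factor under 0.7, against 0% on each of the other 7, and at the probes of the other 9 members it lay between 0.804 and 1.19 on all arrays. With a normexp background correction of the raw signals, which leaves the trend factor out, the first probe read 6.20 and 7.02 with saline, and its differences from saline were 0.46, 0.31 and 0.71 with chrysotile, crocidolite and amosite. The sign of the Dlk1 difference with chrysotile and crocidolite therefore turned under that setting, at both probes, and the second probe gave 0.19, 0.028 and 0.52. The setting also changes the background correction, and the part of the trend factor alone was not tested. Without saline replicate 1 the differences at the first probe were -0.016, -0.18 and 0.22, and no Dlk1 difference at that probe passed the unadjusted threshold under these settings.

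**Figure D3:**
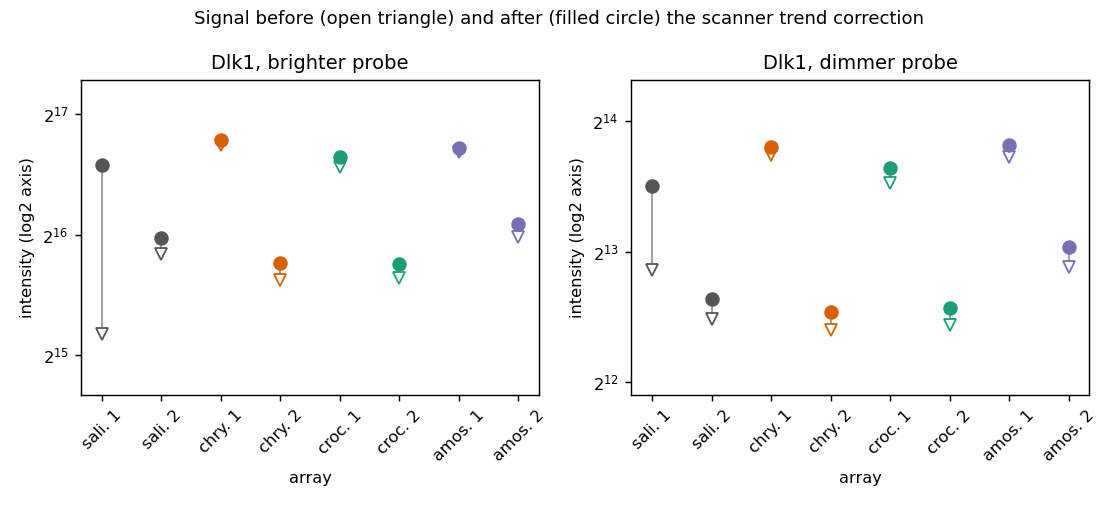
Background-subtracted intensity of the 2 Dlk1 probes on each of 8 arrays before (open triangles) and after (filled circles) the scanner's trend correction, on a log2 axis, with arrays named by the first letters of the group and the replicate number. The correction is longest on saline replicate 1, from 36964 to 97579 at the brighter probe, and short on the other 7 arrays.

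Gata2, a zinc-finger transcription factor that holds preadipocytes back from differentiation, was read by a dim probe at chr6:88156362-88156421, with an intensity of 17.8 to 56.5. Its level was -2.98 and -4.43 with saline, -3.43 and -4.85 with chrysotile, -3.81 and -4.57 with crocidolite, and -3.90 and -4.30 with amosite. Replicate 1 was above replicate 2 in all 4 groups, and Gata2 had the widest within-group SD of the 9 members, 0.78. Its differences from saline were -0.44, -0.48 and -0.39 with chrysotile, crocidolite and amosite, each with a standard error of 0.63. With the replicate number as a block that standard error was 0.29, and the limma unadjusted p was 0.193, 0.157 and 0.233. The direction of Gata2 rested on 1 saline array: without saline replicate 1 the differences were 0.29, 0.24 and 0.33, and without saline replicate 2 they were -1.16, -1.21 and -1.12.

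Zfp423 encodes a zinc-finger factor of preadipocyte commitment that strengthens BMP signalling. It had 3 probes on the minus strand of chromosome 8, all well above background on all 8 arrays, and the one with the highest intensity, at chr8:90185710-90185769, stood for the gene. That probe read 1.57 and 1.41 with saline, 1.12 and 0.97 with chrysotile, 1.15 and 1.17 with crocidolite, and 1.16 and 1.42 with amosite. The chrysotile and crocidolite arrays were below both saline arrays, which held for 15.8% and 21.1% of all genes, and 1 amosite array lay between the saline arrays. The difference from saline was -0.44 ± 0.14 with chrysotile (1.36-fold lower; limma unadjusted p = 0.0177, adjusted p = 0.901), -0.33 ± 0.14 with crocidolite (limma unadjusted p = 0.0539, adjusted p = 0.681) and -0.20 ± 0.14 with amosite. Without saline replicate 1 the chrysotile value of Zfp423 was -0.36 (limma unadjusted p = 0.0740).

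The 3 Zfp423 probes had the same sign and unlike sizes. The probe at chr8:90210329-90210388 is shown because it lies well apart from the others along the gene. Capitals mark codons for a cysteine, any pair of residues and a cysteine, as in a zinc finger, found in an open reading frame of the probe.
Zfp423 upstream probe: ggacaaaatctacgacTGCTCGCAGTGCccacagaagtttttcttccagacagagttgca
It read 0.49 and 0.23 with saline, 0.15 and 0.19 with chrysotile, 0.28 and 0.078 with crocidolite, and 0.16 and 0.23 with amosite, and both chrysotile arrays were just below both saline arrays. Its difference from saline with chrysotile was -0.19 ± 0.14, and that of the probe at chr8:90185918-90185977 was -0.24 ± 0.17. With the mean of the 3 probes as the gene's value, the chrysotile difference was -0.29, with a limma unadjusted p of 0.0770.

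Arrays of one replicate number deviated from their group means in the same direction for several members. Replicate 1 was above replicate 2 in all 4 groups for 4 of 9 members (Dlk1, Pdgfra, Thy1 and Gata2), which was also so for 20.3% of all genes, and below it in all 4 groups for Wisp2, as for 16.7% of all genes. Within the replicate 1 arrays Wisp2 was above saline by 0.62 with chrysotile, 1.62 with crocidolite and 0.20 with amosite. Within the replicate 2 arrays the same differences were 1.67, 1.44 and 0.11. Ly6a was above saline by 0.75 and 0.88 with chrysotile and by 0.98 and 0.55 with crocidolite, while with amosite it was higher by 0.36 in replicate 1 and lower in replicate 2, at -0.35. Replicate number was also the slide column and treatment group the slide row, so row and group cannot be told apart.

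**Figure D4:**
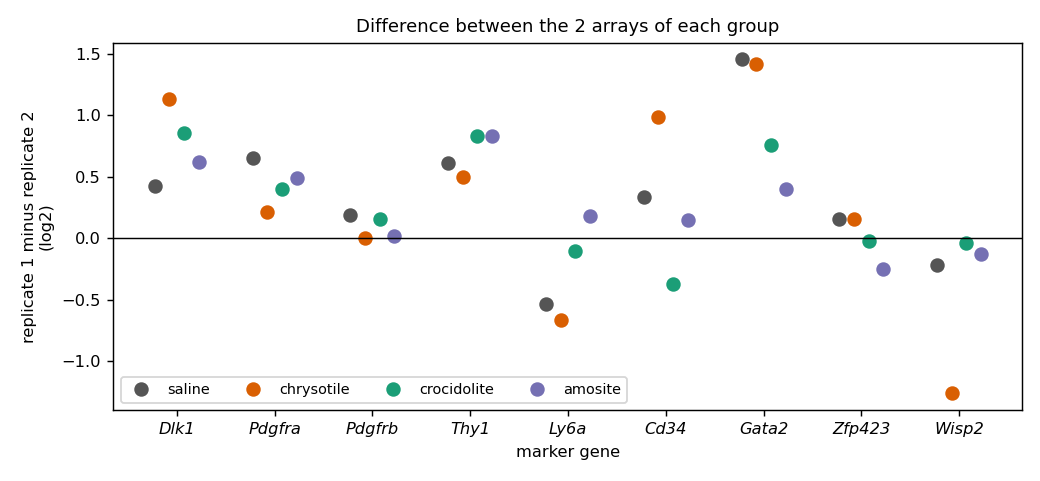
Replicate 1 minus replicate 2 (log2) for the 9 tested marker genes in each of the 4 groups, 1 point per group. All 4 points lie above 0 for Dlk1, Pdgfra, Thy1 and Gata2 and below 0 for Wisp2, whose chrysotile point is the farthest from 0.

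Partner genes of the members were taken from lists of their pathways, and no gene of any list passed the adjusted threshold. At an unadjusted p under 0.05, the shares over all genes tested were 2.77% higher and 2.7% lower with chrysotile. With crocidolite they were 2.62% and 4.68%, and with amosite 2.59% passed in either direction. These shares stand beside the counts of every list below. Of 15 genes around Dlk1 and Notch signalling, 13 were measured, and 1 was lower at an unadjusted p under 0.05 with chrysotile and 1 with crocidolite. That gene was Notch3, a receptor of mural and mesenchymal cells, at 1.13 and 1.14 with saline, 0.65 and 0.32 with chrysotile, 0.60 and 0.58 with crocidolite, and 0.90 and 1.15 with amosite. Its differences from saline were -0.65 ± 0.15 and -0.54 ± 0.15 with chrysotile and crocidolite (limma unadjusted p = 0.00525 and 0.0115) and -0.11 with amosite. The Notch ligand Dll1 differed by -0.24, -0.42 and 0.060 with chrysotile, crocidolite and amosite, each ± 0.19.

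Of 12 genes of PDGF signalling, 11 were measured. With chrysotile 3 were higher and 1 lower at an unadjusted p under 0.05, with crocidolite 2 and 1, and with amosite 0 and 0. Pdgfa, the ligand that acts through Pdgfra, was at 3.10 and 3.08 with saline, 3.31 and 3.41 with chrysotile, 3.41 and 3.33 with crocidolite, and 3.02 and 2.95 with amosite. Its differences from saline were 0.27 ± 0.11, 0.28 ± 0.11 and -0.10 ± 0.11. Pik3r1, the regulatory subunit of phosphoinositide 3-kinase, differed by -0.34 ± 0.12 with chrysotile, -0.34 ± 0.12 with crocidolite and 0.073 ± 0.12 with amosite.

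Of 31 genes of Wnt signalling, 22 were measured, and at an unadjusted p under 0.05 the count was 1 higher and 0 lower with chrysotile, 0 and 2 with crocidolite, and 0 and 0 with amosite. Lef1, a transcription factor at the end of the pathway, differed by 0.49 ± 0.15 with chrysotile, 0.26 ± 0.15 with crocidolite and -0.024 ± 0.15 with amosite. Axin2, a feedback inhibitor and common target of the pathway, differed by -0.86 ± 0.37, -1.13 ± 0.37 and -0.066 ± 0.37, and it was well above background on 5 of 8 arrays only.

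Of 21 GATA and BMP commitment factors, 19 were measured. With chrysotile 3 were higher at an unadjusted p under 0.05, with crocidolite 1 and with amosite 1, and none was lower. Bmpr2, the type II BMP receptor, was at 1.94 and 2.53 with saline and at 2.77 to 2.91 on the 6 fibre arrays, so that saline replicate 1 stood lowest. Its differences from saline were 0.63, 0.63 and 0.58 with chrysotile, crocidolite and amosite, each ± 0.20. Klf4, a Krüppel-like factor of early differentiation, differed by 0.46 ± 0.18, 0.42 ± 0.18 and -0.068 ± 0.18.

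Of 28 other progenitor and fibroblast markers, 23 were measured. At an unadjusted p under 0.05, 3 were higher and 2 lower with chrysotile, 4 and 1 with crocidolite, and 0 and 0 with amosite. Ly6c1, a relative of Ly6a, was at 3.86 and 4.06 with saline, 4.31 and 4.83 with chrysotile, 4.69 and 4.57 with crocidolite, and 4.13 and 3.80 with amosite. Its differences from saline were 0.61 ± 0.21, 0.67 ± 0.21 and 0.0017 ± 0.21. Postn, a matrix protein of fibroblasts, differed by -0.46 ± 0.17 with chrysotile, -0.62 ± 0.17 with crocidolite and -0.19 ± 0.17 with amosite.

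Among the 14 adipocyte genes none passed at the unadjusted level for any fibre. Those above saline were 1 of 14 with chrysotile, 1 of 14 with crocidolite and 2 of 14 with amosite, so nearly all lay below it. The median difference was -0.15 with chrysotile, -0.18 with crocidolite and -0.060 with amosite, against -0.0095, -0.031 and -0.0030 over all genes. The comparisons share the 2 saline arrays, whose summed levels were 11.37 and 11.75. The fibre arrays lay between 11.34 and 11.50, so 1 saline array was within their range. Car3, an abundant carbonic anhydrase of fat cells, differed by -0.86 ± 0.66, -1.09 ± 0.66 and -0.067 ± 0.66, and its saline arrays were at 2.28 and 3.81. Cfd, the adipokine adipsin, differed by -0.11 ± 0.12, -0.24 ± 0.12 and -0.15 ± 0.12. Of the 7 measured macrophage markers, 5 lay above saline with chrysotile, 5 with crocidolite and 4 with amosite. At an unadjusted p under 0.05, 1 was higher with chrysotile (Cd68, 0.59 ± 0.17) and 1 with crocidolite (Cd14, 0.95 ± 0.30). Those were the groups in which Wisp2 and Ly6a were higher. Cd68 differed by 0.40 ± 0.17 with crocidolite and Cd14 by 0.69 ± 0.30 with chrysotile. The mean level of Mpeg1 was -1.23 with saline and -0.28, -0.26 and -1.53 with chrysotile, crocidolite and amosite. Itgam was at 5.73 with saline and 5.735, 5.60 and 5.64 with these fibres. Csf1r, the receptor for the macrophage growth factor, had a mean level of 2.60 with saline and 2.15, 2.22 and 2.15 with chrysotile, crocidolite and amosite. For the mean of the 3 fibres minus saline, 2 macrophage markers were higher and 1 lower at the unadjusted level, against 2.32% and 3.33% of all genes. The part of these markers in the Wisp2 and Ly6a values was not tested. Of the 3 measured endothelial markers none passed, and Pecam1 and Vwf differed from saline by -0.31 to 0.40.

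The genes most like Wisp2 and Ly6a were found by the distance between the 8 array values, each gene centred on its own mean, among 13359 named genes above background on all arrays. For Wisp2 they were the chemokine Ccl6 (distance 0.32), the CCN protein Ccn1 (0.37) and the chemokine Cxcl1 (0.39). Ccl6 differed from saline by 1.23, 1.77 and 0.14 with chrysotile, crocidolite and amosite, and Cxcl1 by 1.07, 1.23 and 0.12. For Ly6a they were the interferon-inducible gene Ifi204 (distance 0.25), the phosphodiesterase Pde2a (0.35) and the calcium-binding protein S100a8 (0.36). Ifi204 differed from saline by 0.76, 0.81 and -0.049. These genes were picked for likeness on the same 8 arrays, so their differences from saline follow from the choice. How near the closest of 13359 genes would lie without a shared response was not tested.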

How the data were processed

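Total RNA of 3T3-L1 adipocytes was labelled with Cy3 and hybridised to 1-colour Agilent mouse arrays, all 8 on 1 slide. Per the file headers, Feature Extraction 10.7.1.1 (10.7 in the submitters' processing notes) gave each spot an intensity, background-subtracted and divided by a trend factor, a ratio per spot that the deposited files also hold. The deposited value table held the same intensity values (largest difference 0). From these, the log2 of the intensity minus that of the array's 75th percentile was computed. Control and outlier-flagged spots were left out and spots of a probe averaged. Probes well above background on both arrays of at least 1 group were kept (33042), and the brightest by mean stood for a gene. Symbols were updated through transcript accessions for 26762 probes, against GRCm38.p6 gene names, and coordinates are those of the files (mm9). Whether a probe lies in an exon or UTR is not given in the sources used here.

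One limma fit (R 4.3.3, limma 3.58.1, 4 residual and 2.22 prior degrees of freedom, two-sided) covered all 8 arrays, with Benjamini-Hochberg adjustment over 23052 genes, and the code was tested on simulated data. The members, lists and tests were chosen with earlier results of these data known. Named beside the members are the 2 genes of each list with the smallest F-test p and the 3 nearest genes of the 2 members with the widest range of group means. The labels speak of duplicates and not of separate cultures, so the p-values cover only how far these arrays spread, which may be technical in origin, and 2 arrays per group limit the precision. Replicate numbers paired the arrays: deviations from the group mean correlated at 0.25 to 0.46 in all 6 pairs of groups, across genes.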

Additional observations from a re-analysis of the deposited data

How the results depend on the processing

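In none of 16 alternative settings, 8 of which left out 1 array, did any member pass the adjusted threshold. With the replicate number as a block, the members at an unadjusted p under 0.05 numbered 4 for chrysotile minus saline (3 without the block), 3 for the mean of the 3 fibres minus saline (2) and 3 for chrysotile minus amosite (2), against 10.6%, 10.6% and 8.43% of all genes. The block changed no adjusted call. With no filter on dim probes the count was 1 for amosite minus saline (0 in the report; the gene was Sfrp1, below background) and 1 for chrysotile minus amosite (2). By the same rule 3.52% of all genes passed in each of these comparisons. With only the compared groups in the fit the count was 0 for chrysotile minus saline (3) and 1 for chrysotile minus amosite (2), against 3.06% and 4.61% of all genes. Leaving out 1 array at a time, where a lone array is taken to vary like the other groups, changed member counts as well. This held for chrysotile and crocidolite minus saline, the mean of the fibres, the fibre pairs and the F test. In these comparisons the shares over all genes moved too. The cause was not tested. Of 1008 member values, 80 changed sign, and none of those had an unadjusted p under 0.05 in the report. Wisp2 with crocidolite stayed at 1.42 to 1.64 when 1 array was left out and at 1.45 to 1.53 otherwise. Over all genes, adjusted calls against saline for chrysotile, crocidolite and amosite numbered 66, 48 and 58 without saline replicate 2 (189 for the fibre mean), 8, 4 and 2 without chrysotile replicate 1, 1, 4 and 2 without chrysotile replicate 2, and 3, 2 and 2 with quantile normalization. The trended and robust prior called 1 with chrysotile, the mean of all passing probes called 1 for the fibre mean, and without chrysotile replicate 2 there was 1 each for chrysotile minus crocidolite and chrysotile minus amosite. The other settings called 0. Without saline replicate 2 the only control was saline replicate 1, the array with the strong trend correction, and whether those calls reflect the fibres was not tested. The deposited value table and a block by slide or scan date were not run, as the values were the same and there was 1 of each.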

Other observations

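Wisp2 and Ly6a each belong to a family with other members on the array, and these were looked up after their values were seen. Of the CCN family, Ccn1 differed from saline by 0.94 ± 0.38 with chrysotile, 1.34 ± 0.38 with crocidolite and 0.15 ± 0.38 with amosite. Ccn2 differed by 1.42 ± 0.91, 1.76 ± 0.91 and -0.27 ± 0.91, and Ccn4 by 0.31 ± 0.16, 0.35 ± 0.16 and -0.080 ± 0.16. Ccn3 and Ccn6 were not well above background on any array. Of the Ly6 family, Ly6g differed by 0.63 ± 0.21, 0.52 ± 0.21 and -0.015 ± 0.21, values near those of Ly6a and Ly6c1, whereas Ly6e differed by -0.16, -0.21 and -0.32, each ± 0.11, and Ly6i by 0.068, -0.16 and 0.45, each ± 0.29. Ly6k differed by 0.020, -0.71 and 0.074, each ± 0.28, and Ly6h by -0.41, -0.40 and -0.15, each ± 0.21. Genes of the Ly6 cluster are similar in sequence, and how far their probes share transcripts was not tested.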
